A study of Mus musculus with 6 samples.

Results

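The 10 genes whose products fill the granules and cytosol of neutrophils were followed in mouse heart: the calgranulins S100a8 and S100a9, the specific-granule genes Ltf, Lcn2, Camp and Ngp, the myeloid secretory genes Retnlg and Chi3l3, and the azurophil-granule genes Mpo and Elane. Every noncontrol probe that carries 1 of these names on the array was taken, which gave 12 probes for the 10 genes, among 55681 probes and 28909 gene names in all. The 10 genes had been chosen on measured values of the same contrast that is described here, tail-suspension against sham, so their levels and differences are given as a description, without a test.

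Cardiac muscle RNA came from male C57BL/6 mice. In the tail-suspension group (n = 3 arrays) the mice hung by the tail for 28 days from an age of 10 weeks, which unloads the hind limbs and is used to mimic weightlessness. The sham group (n = 3 arrays) shared their room and feed without suspension. The sample labels also give an age of 11 weeks to both groups, which does not match a start at 10 weeks followed by 28 days, and the age at collection was therefore taken as unsettled. No losartan- or apocynin-treated heart was on these arrays. Nothing in the labels says whether an array held 1 heart or pooled hearts, so the errors below measure the spread between arrays. Below, a heart means the sample on 1 array.

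All 6 one-colour Agilent arrays lay on 1 slide and in 1 scan. Between 50.9% and 53.4% of probes were well above background, a flag that the scanner software sets from a spot's signal and its local background, and no spot was saturated. The 3 sham arrays and tail-suspension 1 occupied row 1 of the slide, and tail-suspension 2 and 3 occupied row 2. The 9 cardiomyocyte markers, each read on its brightest probe, had mean levels of 8.78 to 8.90 on the sham and 8.71 to 8.75 on the tail-suspension arrays. A level is the log2 signal minus the log2 75th percentile of signals on that array.

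Neutrophils make their granule proteins in sequence while they mature in bone marrow. Azurophil granules, with myeloperoxidase and neutrophil elastase, are filled at the promyelocyte stage. Specific granules, with lactoferrin, lipocalin 2, cathelicidin and Ngp, are filled at the myelocyte and metamyelocyte stages, and the S100a8 and S100a9 proteins, which pair as calprotectin, accumulate in the cytosol of mature cells. Circulating neutrophils keep calgranulin transcripts in plenty but hold little mRNA of the azurophil genes. Calprotectin, lipocalin 2 and some secreted proteins of this set can also be made by macrophages, epithelial cells or stressed tissue. In RNA from whole heart, a change in the number of such cells and a change in RNA per cell cannot be told apart.

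The probes are oligonucleotides of 60 bases, and those shown here were chosen because they read a calgranulin and the 2 specific-granule genes that were near background in sham hearts. Placed on mouse build mm9, as the array files give it, the S100a8 probe lay at chr3:90473778-90473837 (plus strand), the Ltf probe at chr9:110942873-110942932 (plus strand) and the Ngp probe at chr9:110324266-110324814 (plus strand), where its 60 bases spanned 549 genomic bases. No base is marked in these lines.
S100a8: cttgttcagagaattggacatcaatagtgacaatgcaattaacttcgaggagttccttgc
Ltf: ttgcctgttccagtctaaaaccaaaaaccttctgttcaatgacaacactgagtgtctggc
Ngp: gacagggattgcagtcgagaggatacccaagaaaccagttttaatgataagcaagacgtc

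The letters AATAAA, the usual signal for adding a poly(A) tail, were found in 4 of the 12 member probes against 10.1% of all probes on the array, read on the probe strand only. The last 30 bases of 3 such probes are shown, with the signal in capitals, since they tell which end of the transcript was read for Chi3l3 and the azurophil genes. They end the probes at chr3:105950485-105950544 (Chi3l3, minus strand), chr11:87617840-87617899 (Mpo, plus strand) and chr10:79350902-79350961 (Elane, plus strand).
Chi3l3: atgcttgtttcttgctctcacAATAAAttc
Mpo: tatttgtacctgaggttcacactAATAAAa
Elane: ttactacAATAAAagcagcctttgttttgt

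Some members shared a chromosome, but only the calgranulin pair lay close together. The S100a8 and S100a9 probes were 22735 bases apart on chromosome 3, with 0 other named genes of the array between them. Chi3l3, also on chromosome 3, was 15453852 bases from S100a9. On chromosome 9, Camp, Ngp and Ltf followed in that order, with 11 other named genes between Camp and Ngp and 25 between Ngp and Ltf. The probes of Camp and Ngp were at least 574295 bases apart there, and those of Ngp and Ltf 618058.

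Since most members differed together, the 250 bases before each start were also searched, on both strands, for TTNNGNAA (the core of sites bound by C/EBP factors, which drive granulocyte genes), GAGGAAG (a site of the PU.1 type) and TATAAA. RefSeq promoters on GRCm38.p6 were matched for 10 of 10 members, Chi3l3 through its present symbol Chil3. TTNNGNAA was found before 7 members against 36.8% of all 32851 promoters, GAGGAAG before 4 against 10.6%, and TATAAA before 1 against 12.4%. No 2 motifs overlapped in a member promoter. The promoters of the calgranulin pair and of Ngp and Lcn2, which had 3 and 1 matches of TTNNGNAA, are shown as examples with the motifs in capitals, at chr3:90668821-90669070 (S100a8, plus strand), chr3:90695722-90695971 (S100a9, minus strand), chr9:110419558-110419807 (Ngp, plus strand) and chr2:32387740-32387989 (Lcn2, minus strand). A match of letters is a description and not a measured site.
S100a8 promoter: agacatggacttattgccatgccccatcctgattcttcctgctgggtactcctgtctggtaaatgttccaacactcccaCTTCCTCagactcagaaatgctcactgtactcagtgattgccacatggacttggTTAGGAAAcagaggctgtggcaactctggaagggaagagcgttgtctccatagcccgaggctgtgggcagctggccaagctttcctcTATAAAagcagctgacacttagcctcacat
S100a9 promoter: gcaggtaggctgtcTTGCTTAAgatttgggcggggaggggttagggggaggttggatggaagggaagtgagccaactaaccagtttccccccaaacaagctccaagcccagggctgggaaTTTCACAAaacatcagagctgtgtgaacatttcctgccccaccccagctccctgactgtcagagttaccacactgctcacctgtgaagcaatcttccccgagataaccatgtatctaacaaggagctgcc
Ngp promoter: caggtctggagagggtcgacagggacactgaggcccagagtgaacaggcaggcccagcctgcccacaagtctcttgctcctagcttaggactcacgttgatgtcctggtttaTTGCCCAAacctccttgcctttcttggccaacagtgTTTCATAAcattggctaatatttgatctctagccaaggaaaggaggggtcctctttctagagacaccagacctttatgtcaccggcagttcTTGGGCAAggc
Lcn2 promoter: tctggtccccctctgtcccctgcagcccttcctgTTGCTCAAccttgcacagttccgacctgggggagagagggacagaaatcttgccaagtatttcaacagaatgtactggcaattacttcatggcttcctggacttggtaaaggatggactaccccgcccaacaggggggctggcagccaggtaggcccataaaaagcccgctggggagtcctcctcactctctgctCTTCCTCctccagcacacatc

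Both calgranulins were well above background in every heart and far higher in the suspended ones. S100a8, which binds calcium and zinc and pairs with S100a9, had processed signals (background-subtracted intensities in scanner units) of 55.5, 43.3 and 29 on sham arrays 1 to 3 and of 3380, 550 and 1260 on tail-suspension arrays 1 to 3. The lowest suspended heart thus stood far above the highest sham heart, by 3.08 on the log2 scale. The mean level was -2.93 ± 0.42 in sham and 1.87 ± 1.39 in tail-suspension (SD, n = 3 each), a difference of 4.80 ± 0.65 (SE of the limma fit) or 27.9-fold. S100a9, its partner, had signals of 229, 196 and 136 in sham and of 12700, 2290 and 4790 in tail-suspension. The groups again did not overlap, and the order of the arrays was that of S100a8 in both groups. The difference of S100a9 was 4.62 ± 0.61, or 24.5-fold.

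The specific-granule genes differed in the same direction, but some of them could be read only in suspended hearts. Lcn2, a lipocalin that withholds iron by binding bacterial siderophores, had signals of 226, 305 and 271 in sham and of 5860, 1910 and 11800 in tail-suspension. It differed by 4.05 ± 0.61, or 16.6-fold, and its highest heart was tail-suspension 3, not tail-suspension 1. Ltf, lactoferrin, an iron-binding protein, had signals of 4.6, 3.08 and 3.1 in sham, none well above background, and of 357, 35 and 105 in tail-suspension, all well above it. Because the sham side gave only a bound, Ltf was at least 6.26-fold higher in tail-suspension. This bound, used for every gene with no sham array well above background, sets the tail-suspension mean against the mean over sham arrays of the lowest signal that any probe well above background had there, or the probe's own signal if higher. It holds for the processing used here. With normexp background correction, which adds an offset of 50 to every spot, the difference of Ltf was 1.30 on the log2 scale, below the bound.

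Camp, which encodes the cathelicidin from which the antimicrobial peptide is cut, was read by 2 probes that share a run of 40 bases and so are not independent. The brighter gave signals of 53.2, 47.4 and 35.3 in sham and of 512, 88.8 and 184 in tail-suspension. The other gave 36.5, 34.5 and 34.1 in sham and 259, 57.1 and 96.2 in tail-suspension. On both, every suspended heart was above every sham heart, but tail-suspension 2 was above the sham mean only 1.66-fold and 1.36-fold. The differences of 1.97 ± 0.62 and 1.47 ± 0.54 were both short of the threshold of the fit. Ngp, a granule protein of the cathelicidin and cystatin superfamily, had signals of 3, 3.1 and 3.09 in sham and of 144, 9.84 and 45.4 in tail-suspension. Only tail-suspension 1 and 3 were well above background, so that Ngp did not enter the fit, and no fold is given for it.

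Retnlg and Chi3l3 encode secreted proteins of neutrophils and other myeloid cells. Retnlg, a resistin-like protein found in granulocytes, had signals of 6.22, 4.06 and 3.24 in sham, none well above background, and of 483, 94.2 and 218 in tail-suspension. It was at least 12.3-fold higher in tail-suspension. With normexp correction the difference of Retnlg was 1.82 on the log2 scale, below that bound. Chi3l3, also known as Ym1, is a chitinase-like protein of neutrophil precursors and of alternatively activated macrophages, and it has near-identical paralogs that a probe may share. Its signals were 15.8, 9.73 and 5.21 in sham, of which sham 1 alone was well above background, and 1000, 110 and 457 in tail-suspension. The groups did not overlap. The difference was 5.10 ± 0.83 with the sham arrays that did not read it at their measured signals, and 2.42 with normexp correction, which lifts dim spots.

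Of the azurophil genes, Mpo was higher in suspended hearts and Elane was not. Mpo, myeloperoxidase, was read by 2 probes. The probe at its 3′ end had signals of 5.6, 6.77 and 7.91 in sham, none well above background, and of 47.2, 38.4 and 31.4 in tail-suspension, all well above it, which made Mpo at least 2.20-fold higher. With normexp background correction, which adds an offset of 50 to every spot, the difference of Mpo was 0.32 on the log2 scale. The spread of its 3 suspended hearts (SD 0.37) was the smallest among the members that were higher. The second Mpo probe, 5′ of the first, was not well above background on any array, with signals from 3.08 to 5.92. Elane, neutrophil elastase, had signals of 343, 303 and 312 in sham and of 275, 334 and 294 in tail-suspension, well above background on every array. After the array scaling, each suspended heart was slightly below each sham heart, with mean levels of 0.02 ± 0.09 and -0.28 ± 0.09, and the difference of -0.30 ± 0.09 did not pass the threshold of the fit. The gene next to Elane, Prtn3, another azurophil protease, was not well above background on any array, and neither Mpo probe was in sham, where the Elane probe was bright. Whether the Elane probe reads only Elane transcript was not tested.

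**Figure D1:**
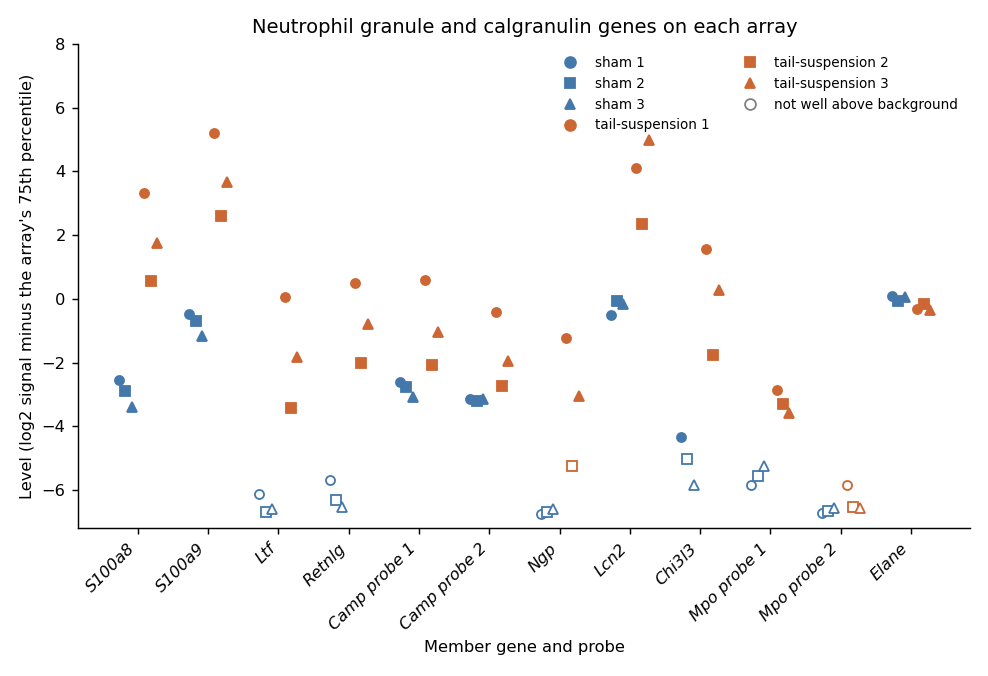
Level (log2 signal minus the array's 75th percentile) of the 12 member probes on the 3 sham arrays (blue) and the 3 tail-suspension arrays (orange), with open symbols where the spot was not well above background. S100a8, S100a9, Lcn2 and Chi3l3 sit far apart between the groups, Ltf, Retnlg and Ngp are read only in tail-suspension, and Elane stays near 0 in both.

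Of the 10 genes, 9 had a probe that entered the fit, which took probes that all 3 arrays of either group read well above background. Of these, 7 passed the adjusted threshold of 0.05 as higher in tail-suspension, 0 as lower, and Camp and Elane did not pass. Over all 28030 tested probes, 10.8% passed as higher, 9.57% as lower and 20.4% in either direction. All 3 suspended hearts were above all 3 sham hearts for 8 of the 9 genes, against 22.1% of tested probes. The members were chosen for this contrast, and Ltf, Retnlg, Chi3l3 and Mpo entered only through the group where they are high, so nothing is read from these counts. The median difference over the 9 genes was 4.62, or 3.62 with Ltf, Retnlg and Mpo at their bounds, beside -0.01 over all 17138 tested genes.

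The flag of signal well above background set which values count as measured. The dimmest member spots that had it were Chi3l3 on sham 1 (level -4.35, signal 15.8), Mpo on tail-suspension 3 (-3.58, 31.4) and Ltf on tail-suspension 2 (-3.43, 35). The brightest without it were Chi3l3 on sham 2 (-5.04, 9.73), Mpo on sham 3 (-5.25, 7.91) and Ngp on tail-suspension 2 (-5.26, 9.84).

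Among the members read on all 6 arrays, the suspended hearts spanned more than the sham hearts for S100a8 (2.76 against 0.84 on the log2 scale), S100a9 (2.61 against 0.66), Lcn2 (2.63 against 0.44) and the brighter Camp probe (2.67 against 0.50), but not clearly for Elane (0.18 against 0.17). S100a8 stood 75.8-fold above the sham mean on tail-suspension 1, 25.7-fold on tail-suspension 3 and 11.2-fold on tail-suspension 2. The same order of arrays, 1 above 3 above 2, was held by S100a9, Ltf, Retnlg, both Camp probes, Ngp and Chi3l3, and 20.1% of all tested probes had it. The exceptions were Lcn2 (3 above 1 above 2), the Mpo probe that was read (1 above 2 above 3) and Elane (2 above 1 above 3). Between tail-suspension 1 and 2 the gap was 6.79-fold for S100a8, 6.12-fold for S100a9, 6.36-fold for the brighter Camp probe and 10.0-fold for Chi3l3, but only 3.38-fold for Lcn2 and 1.36-fold for Mpo.

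Leaving out any 1 array kept the sign of all 9 differences. The median over the members was 3.91 without tail-suspension 1, 5.01 without tail-suspension 2 and 4.70 without tail-suspension 3. Only without tail-suspension 2 did Ngp enter the fit, so that median includes Ngp beside the 9 genes. Tail-suspension 1, which had the highest calgranulin signal, lay in the slide row of the sham arrays. Within that row, where it is the only suspended heart, it stood above the sham mean by 6.24 on the log2 scale for S100a8, 6.00 for S100a9, 4.35 for Lcn2 and 2.70 for Mpo. For each of the 9 genes the difference within row 1 was larger in size than over all arrays.

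**Figure D2:**
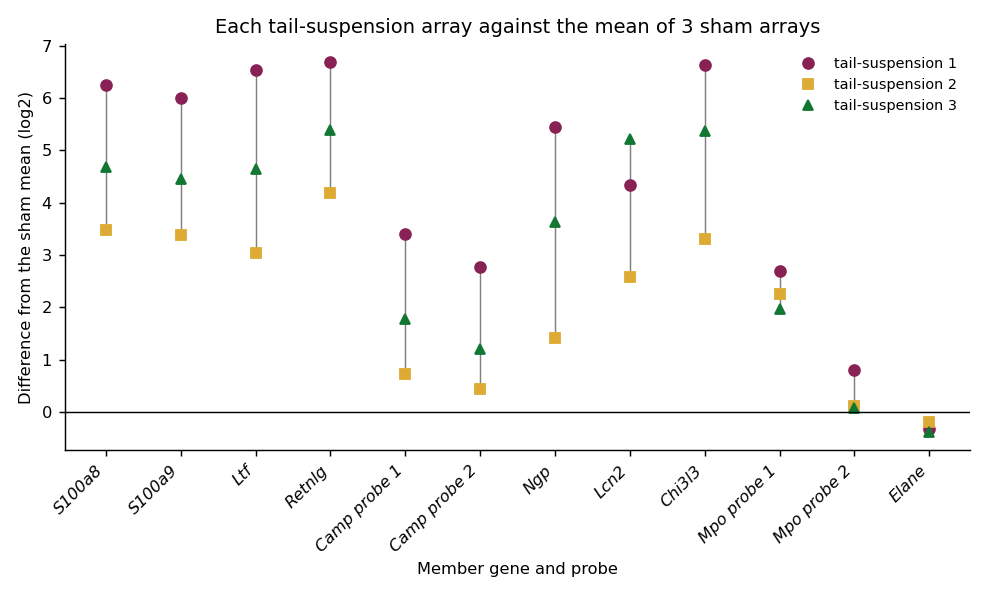
Difference of each tail-suspension array from the mean of the 3 sham arrays (log2) for the 12 member probes, with a grey line from the lowest to the highest. Tail-suspension 1 lies above 3 and 3 above 2 for S100a8, S100a9, Ltf, Retnlg, Camp, Ngp and Chi3l3, while Lcn2 is highest on tail-suspension 3 and Mpo spans 0.73.

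Likeness to S100a8 was measured over the 6 arrays by Pearson's r of the levels, among 2974 other tested genes whose levels spanned at least 1 on the log2 scale. The arrays fall into the 2 groups, so r mostly reads the difference between them, and 15.9% of the compared genes had an r of at least 0.9. The correlation of deviations from each group's mean reads the spread within groups, and 3.6% of the genes reached 0.9 on it. Among the members, S100a9 had an r of 0.9998 and 0.9983 within groups, Retnlg 0.9975 and 0.9919, Chi3l3 0.9948 and 0.9728, and Ltf 0.9944 and 0.9775. Camp had the lower r of 0.9413 but 0.9927 within groups. Lcn2 and Mpo kept to the pattern between groups, with 0.9431 and 0.9425, but not within them, with 0.5272 and 0.3092.

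The gene outside the set with the highest r was Hp, haptoglobin, which binds free haemoglobin and is stored in specific granules as well as secreted by liver (r of 0.9975, and 0.9772 within groups). It was followed by 1700101I11Rik, Acaca, a transcript carrying only an Ensembl number, Sirpb1b, C2, Plcd3, Myc, Nmral1 and Csf2rb, with an r of 0.9968 down to 0.9918 and a correlation within groups of 0.9904 down to 0.9217. Csf2rb encodes the common receptor chain for myeloid growth factors, Sirpb1b a signal-regulatory protein of myeloid cells, C2 a complement component and Acaca the enzyme that starts fatty acid synthesis. Sirpb1b was like Ltf and Retnlg in being well above background on 0 sham and 3 tail-suspension arrays, with signals of 12.3, 9.02 and 8.48 against 146, 55 and 108. All 10 differed by less than S100a8, from 0.78 for Acaca to 4.04 for Hp.

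**Figure D3:**
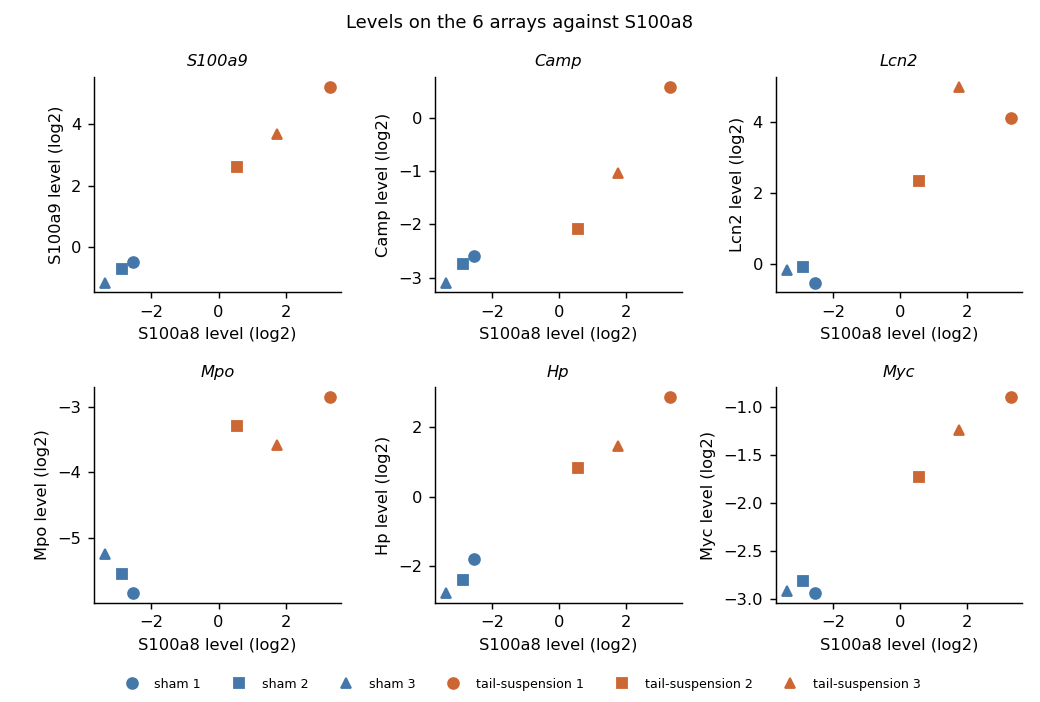
Level (log2) of 6 genes against the level of S100a8 on the same array, sham in blue and tail-suspension in orange, with 1 symbol per replicate. S100a9, Camp and Hp keep the order of S100a8 among the suspended hearts, whereas Lcn2 is highest on tail-suspension 3 and Mpo is lower on 3 than on 2.

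Genes of the same cell type that are not members were taken from lists of other azurophil, other specific and gelatinase, stefin A and surface receptor genes, 44 in all, of which 43 had a probe. In the fit, 19 were tested, 9 rose, 0 fell and 10 did not pass, with a median difference of 1.09. Over all 28030 tested probes, 10.8% rose and 9.57% fell. Pglyrp1, Slpi, Clec4d, Fpr1 and Fpr2, which were among the 9, entered only through the suspended hearts, where they are high. Of the 13 genes well above background on all 6 arrays, 4 rose, with a median difference of 0.69. At an unadjusted p under 0.05 limma had 15 higher and 0 lower, and the methods' t-test with Benjamini-Hochberg adjustment had 4 and 0. The number of calls changed with single arrays. Without tail-suspension 2, 28 were tested and 23 rose, where 10.2% of all tested probes rose, and all 9 of the first calls were among the 23. The 9 genes that entered the fit only then were well above background on tail-suspension 1 and 3 alone, so that they had to differ. Without sham 2, 5 rose.

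Among the granule genes, Hp had signals of 93.6, 60.8 and 44.3 in sham and of 2490, 671 and 1040 in tail-suspension, and rose by 4.04 ± 0.52 (adjusted p = 0.0061, limma). Hp had been picked by the study from these arrays, as were several members, and is no independent evidence of the direction. Slpi, an inhibitor that shields tissue from elastase, rose by 3.02 ± 0.33 (adjusted p = 0.0038), from signals of 21.8, 26.4 and 14.3 to 284, 147 and 165. Pglyrp1, which binds bacterial peptidoglycan, rose by 2.03 ± 0.47 (adjusted p = 0.029) and, with no sham array well above background, was at least 3.36-fold higher. Pglyrp1 lost its call without any 1 sham array or without tail-suspension 3 (adjusted p from 0.062 to 0.10, limma), and with normexp correction (0.50, adjusted p = 0.13), whereas Hp and Slpi passed whichever array was left out. Of the 2 other tested granule genes of that list, Adam8 had a difference of 1.62 ± 0.61 (adjusted p = 0.10), with tail-suspension 3 at 797 against 200 and 130 on the others. Anxa1 had one of 0.26 ± 0.19 (adjusted p = 0.35) on its brightest probe. A dimmer Anxa1 probe gave 0.67 ± 0.18 (adjusted p = 0.046, limma), so its probes differ on the threshold. The only tested azurophil gene of the list, Serpinb1a, an inhibitor of neutrophil serine proteases, had -0.11 ± 0.11 (adjusted p = 0.51).

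The stefin A genes encode cystatins of the cysteine-protease inhibitor family and are near-identical copies, so a probe may read several. Stfa2 rose by 1.59 ± 0.31 (adjusted p = 0.020), from signals of 22.6, 21.9 and 18.2 to 114, 51.4 and 64.4, and lost its call without any 1 sham array or without tail-suspension 3 (adjusted p from 0.053 to 0.070, limma) and with normexp correction (0.48, adjusted p = 0.085). Stfa2l1, Gm5483 and BC100530 were well above background on tail-suspension 1 and 3 alone. Stfa2l1 had signals of 83.4, 14.4 and 42.2 there against 3.08, 3.14 and 3.16 in sham, the array order of S100a8.

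Of 12 tested surface receptors, 5 rose. Clec4d, a C-type lectin of myeloid cells, had sham signals of 9.49, 6.93 and 12.5, none well above background, against 220, 90 and 537, and was at least 12.6-fold higher (adjusted p = 0.0080). The formyl peptide receptors Fpr1 and Fpr2, which guide neutrophils to bacteria and damaged tissue, were at least 1.99-fold and 1.85-fold higher (adjusted p = 0.0028 and 0.0023). No sham array read Clec4d, Fpr1 or Fpr2, so their p-values set suspended hearts against signals near background. With normexp correction the difference of each fell below its bound. Clec4d still passed there (1.80 on the log2 scale, adjusted p = 0.0093, limma), but Fpr1 and Fpr2 did not (0.29 and 0.35, adjusted p = 0.18 and 0.11). The antibody receptors Fcgr4 and Fcgr3, shared with macrophages, rose by 1.52 ± 0.26 and 1.09 ± 0.23 (adjusted p = 0.012 and 0.024). Without sham 2, Fcgr4 did not pass (adjusted p = 0.052, limma), and Fcgr3 did not pass without any 1 sham array or without tail-suspension 1 (adjusted p from 0.056 to 0.089). Csf3r, the receptor for the growth factor of granulocytes, did not pass (0.30 ± 0.11, adjusted p = 0.093), and its probe gave signals of 45800 to 79000 on all arrays. Itgam did not pass on its brightest probe (-0.19 ± 0.22, adjusted p = 0.55), while a dimmer Itgam probe gave 0.72 ± 0.15 (adjusted p = 0.024), so its probes disagree. Another dim Itgam probe did not pass either (0.15 ± 0.17, adjusted p = 0.54, limma). Ly6g had no probe under that name.

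Of the 24 other neutrophil genes without a tested probe, 13 were well above background on tail-suspension 1 and on no sham array, 10 on tail-suspension 3 and 0 on tail-suspension 2. Over all 11771 named genes without a tested probe these shares were 3.58%, 2.64% and 1.94%. Mmp8, the collagenase of specific granules, had sham signals of 3.07, 3.1 and 3.09 and tail-suspension signals of 148, 15.8 and 93.3. Il1r2, a decoy receptor for interleukin 1, had 90, 13.5 and 53 in tail-suspension, and Cxcr2, the receptor that draws neutrophils to chemokines, had 47.8, 19.6 and 22.8. Ctsg, the azurophil protease cathepsin G, had 44.9, 18.8 and 24. Mmp9 and Cd177 were well above background on tail-suspension 1 alone, at 23.4 and 22.6. Prtn3, Ms4a3, Bpi, Cst7 and Olfm4 were not well above background on any array. By array, 15, 16 and 13 of the 43 genes were well above background in the sham hearts, against 32, 19 and 30 on tail-suspension 1 to 3, so that tail-suspension 2 was close to sham by this count.

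**Figure D4:**
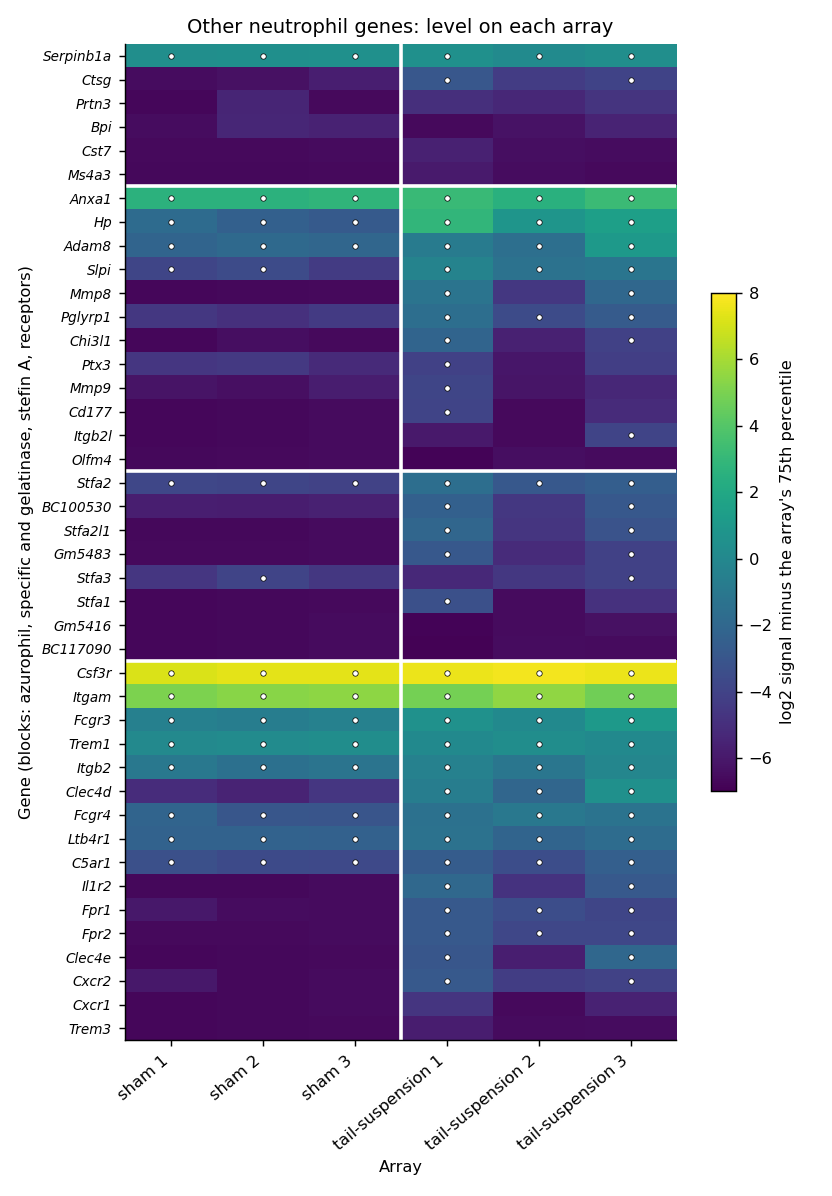
Level (log2 signal minus the array's 75th percentile, colour) of 42 of the 43 other neutrophil genes with a probe on the 6 arrays, with a white dot where the spot was well above background. Dots number 31 and 29 on tail-suspension 1 and 3, 18 on tail-suspension 2 and 13 to 15 on the sham arrays.

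The other lists show what did and did not move beside these genes. Of the 15 genes for neutrophil recruitment and growth factors, 4 were tested and 0 passed the limma threshold, with 3 higher at an unadjusted p under 0.05. Cxcl1, a neutrophil-attracting chemokine, had a difference of 0.58 ± 0.22 (adjusted p = 0.11) and Il1b one of -0.11 ± 0.42 (adjusted p = 0.87), and Csf3, Csf2, Cxcl3, Il6 and Il17a were not well above background on any array. Of 7 tested genes that receive or relay calprotectin, Tlr4, a receptor for calprotectin, rose by 0.72 ± 0.16 (adjusted p = 0.028), while Cd14 had 0.60 ± 0.18 (adjusted p = 0.060) and the receptor gene Ager was not well above background on any array. Of 10 tested S100 genes outside the set, read on their brightest probes, S100a13 rose by 0.50 ± 0.14 (adjusted p = 0.048) and S100a16 fell by 0.35 on the log2 scale (adjusted p = 0.038). A dimmer probe of another S100 gene was higher by 0.56 ± 0.12 (adjusted p = 0.027, limma), where its brightest probe did not pass. S100a4 and S100a6 did not pass, with 0.23 ± 0.36 and 0.04 ± 0.23 (adjusted p = 0.68 and 0.92). Tlr4 lost its call without any 1 sham array or without tail-suspension 1 (adjusted p from 0.053 to 0.085, limma), and S100a13 and S100a16 lost theirs without any 1 array other than tail-suspension 2 (from 0.090 to 0.14 and from 0.080 to 0.12). With normexp correction S100a16 did not pass (-0.27, adjusted p = 0.087).

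Among 6 tested transcription factors of granulocyte development, Cebpd rose by 1.85 ± 0.25 (adjusted p = 0.0070) and Cebpb by 1.29 ± 0.25 (adjusted p = 0.019), both factors that many cell types also switch on in inflammation. Cebpa and Runx1 did not pass, with 0.26 ± 0.17 and 0.17 ± 0.22 (adjusted p = 0.30 and 0.62), and Cebpe and Gfi1, which act in granulocyte precursors, were not well above background on any array. Of 11 tested genes of iron and siderophore handling, 2 rose and 1 fell. Tfrc, the transferrin receptor, fell by 2.36 on the log2 scale (adjusted p = 0.024), Ftl1, the ferritin light chain, rose by 0.54 ± 0.12 (adjusted p = 0.026), and Hpx, haemopexin, was at least 1.27-fold higher (adjusted p = 0.0091) but changed sign with normexp correction. Slc22a17, a receptor for lipocalin 2, did not pass (0.25 ± 0.10, adjusted p = 0.12). Cebpb did not pass without sham 1, sham 2 or tail-suspension 3 (adjusted p from 0.052 to 0.062, limma), Tfrc without any 1 sham array or tail-suspension 3 (from 0.059 to 0.085), and Ftl1 without any 1 array other than tail-suspension 1 (from 0.051 to 0.096).

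Of 5 tested acute-phase and inflammation-induced genes, 4 rose. Serpina3n, a serine protease inhibitor, rose by 3.81 ± 0.40 (adjusted p = 0.0033), with levels of 2.07, 0.57 and 1.99 on tail-suspension 1 to 3 against -2.46 to -2.06 in sham, and it had been picked by the study from these arrays. C3, the central complement component, rose by 1.73 ± 0.16 (adjusted p = 0.0026), Socs3, a feedback inhibitor of cytokine signalling, by 1.49 ± 0.16 (adjusted p = 0.0034) and Nfkbiz, a partner of NF-kB, by 0.93 ± 0.09 (adjusted p = 0.0031). Saa1 did not pass (0.02 ± 0.18, adjusted p = 0.96). Of the paralogs of Chi3l3 and Retnlg, Retnla alone was tested and had -2.31 ± 0.71 (adjusted p = 0.063), with signals of 1060, 509 and 909 in sham and of 91.7, 618 and 110 in tail-suspension, the opposite order among suspended hearts to S100a8.

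Markers of other cells in the tissue were read beside the members. Of 12 tested monocyte and macrophage markers, Cd163, a haemoglobin scavenger receptor, was at least 3.39-fold higher (adjusted p = 0.024), Cx3cr1, the fractalkine receptor, fell by 2.43 on the log2 scale (adjusted p = 0.0016), and 10 did not pass, among them Csf1r and Adgre1 (adjusted p = 0.61 and 0.45). The mean level of this list ran from -1.18 to -0.60 in sham and from -0.87 to -0.47 in tail-suspension, so the groups overlapped. Of 6 tested markers of alternatively activated macrophages, which include Retnla, Clec10a and F13a1 rose (1.73 ± 0.31 and 0.95 ± 0.26, adjusted p = 0.015 and 0.046) and Ccl24 fell by 1.22 (adjusted p = 0.016). A dimmer F13a1 probe did not pass (0.74 ± 0.33, adjusted p = 0.15, limma). Cd163 did not pass without tail-suspension 1 or 3 (adjusted p = 0.068 and 0.078, limma) or with normexp correction (0.51, adjusted p = 0.076), Clec10a without sham 2 or tail-suspension 3 (0.058 and 0.053), Ccl24 without sham 1 (0.054), and F13a1 without any 1 array other than tail-suspension 2 (from 0.096 to 0.14). Their part in the member values was not tested.

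Blood markers also differed among the suspended hearts. The mean level of the 8 tested erythroid markers was 2.68 to 3.58 in sham, and 1.80, 2.74 and 2.00 on tail-suspension 1 to 3. By this mean the hearts with the most calgranulin signal had the least erythroid signal, and tail-suspension 2 lay within the sham range. For single genes it was not always so. Tail-suspension 2 lay below every sham heart for Hba-a1 (7.90 against 8.25 to 8.86) and Alas2 (2.37 against 2.63 to 3.50). The other globin genes were the same, but the remaining erythroid markers were not. Of the 8, 0 passed the limma threshold and 5 were lower at an unadjusted p under 0.05 (Hba-a1, -1.50 ± 0.42, adjusted p = 0.051, and Alas2, -1.62 ± 0.49, adjusted p = 0.062). The mean level of 4 tested platelet markers was -1.35 to -0.86 in sham and 0.05, -1.08 and -0.04 on tail-suspension 1 to 3, again with tail-suspension 2 within the sham range, and 0 of the 4 passed, with Ppbp and Gp9 higher at an unadjusted p under 0.05 (1.05 ± 0.33 and 1.04 ± 0.35, adjusted p = 0.066 and 0.076). Pf4 had -0.22 ± 0.19 (adjusted p = 0.45). The methods' t-test with adjustment also passed 0 genes of either list and of the T cell, epithelial, fibroblast and recruitment lists. The part of blood content in the member values was not tested.

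Of 5 tested mast cell markers, Kit fell by 1.99 (adjusted p = 0.0072), and Cma1, Tpsab1 and Ms4a2 had no tested probe. Among the B cell markers, Cd79a fell by 0.86 (adjusted p = 0.020), and 0 of 3 tested T cell markers passed, with Cd4 lower at an unadjusted p under 0.05 (adjusted p = 0.072) and Cd3e not (adjusted p = 0.35). Of 7 eosinophil markers, Ear2 alone was tested (0.16 ± 0.55, adjusted p = 0.85), and Epx, Prg2 and Siglecf were not well above background on any array. Of 2 tested epithelial markers 0 passed, with 1 higher at an unadjusted p under 0.05 (Krt18, 0.72 ± 0.25, adjusted p = 0.084), and Epcam and Cdh1 were not well above background on any array. Among cells of the heart itself, Actc1 fell by 0.33 (adjusted p = 0.036) of 9 cardiomyocyte markers and Kdr by 0.55 (adjusted p = 0.016) of 4 endothelial markers. These counts read the brightest tested probe of each gene. A dimmer Kdr probe did not pass (-0.25 ± 0.08, adjusted p = 0.074, limma). A dimmer probe of another cardiomyocyte marker was lower by 1.47 ± 0.23 on the log2 scale (adjusted p = 0.0096, limma). Of 5 fibroblast markers 0 passed, with Dcn higher and Col1a1 and Col1a2 lower at an unadjusted p under 0.05 (0.34 ± 0.10, -0.95 ± 0.30 and -0.63 ± 0.25, adjusted p = 0.055, 0.066 and 0.12). Pdgfra had 0.19 ± 0.15 (adjusted p = 0.39). Cd79a did not pass without sham 1, tail-suspension 1 or tail-suspension 3 (adjusted p from 0.054 to 0.069, limma), Kdr without sham 1 or sham 2 (0.053 and 0.065), and Actc1 without any 1 of the 6 arrays (from 0.060 to 0.12) or with normexp correction (-0.22, adjusted p = 0.13).

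**Figure D5:**
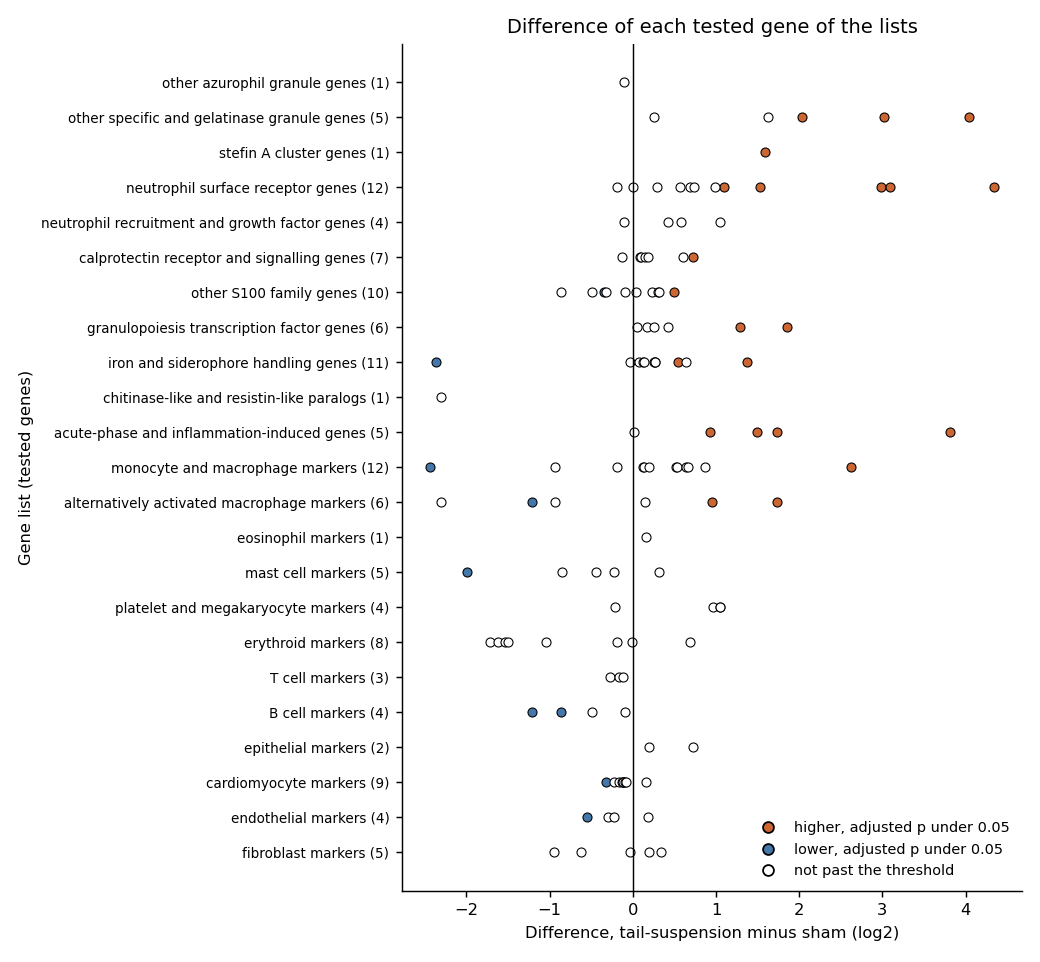
Difference between tail-suspension and sham (log2) of each tested gene of the 23 lists, with the number of tested genes in brackets and filled points for adjusted p under 0.05. Called genes of the neutrophil lists lie on the side of higher levels, up to 4.34 for Clec4d, while erythroid and mast cell markers lie mostly below 0.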

How the data were processed

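RNA from cardiac muscle of sham and tail-suspension mice was labelled with Cy3 and hybridised to one-colour Agilent mouse arrays, 3 per group. The authors deposited for each array the scanner's processed, mean and background intensity per spot, read with Agilent Feature Extraction 10.7.1.1, and a table of log2 values normalized by the authors, whose column medians were 4.33 on all arrays and whose method is not given in the sources used here. It correlated with the levels used here at 0.9991 to 0.9993 and served as an alternative.

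From the scanner files, log2 processed signals were averaged per probe without outlier spots, and the log2 75th percentile of each array (301.6 to 376.3 in signal) was subtracted. Probes that all 3 arrays of either group read well above background were fitted with limma 3.58.1 (R 4.3.3), without covariates, and p-values were adjusted by Benjamini-Hochberg over all of them with a threshold of 0.05. Where a gene had several tested probes, the brightest stood for it. The fit was tested on simulated data. With 3 arrays per group the number of arrays limits the precision.

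The members and all gene lists were chosen with earlier results of these data known. Named were all members, the genes of each list past the threshold (up to 6) with up to 2 that define the list and did not pass, and the 10 genes most like S100a8. Genes named outside that rule are those described by their flags, Adam8, Anxa1, Cd14, Gp9, Dcn and Col1a2, chosen after their values were seen. Some genes of the lists enter the counts and are not reported here by name. Normalization, filters, variance models, the methods' t-test, blocks and single arrays were varied. Proteins were not used here.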

Additional observations from a re-analysis of the deposited data

How the results depend on the processing

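The median difference of the members stayed positive under every alternative run. It moved by more than the spread between arrays with normexp correction at an offset of 50 (1.82, since the offset lifts dim spots) and with the slide row as a block (6.00, where tail-suspension 1 alone carries the contrast). When single arrays were left out it lay between 3.91 and 5.01, the latter without tail-suspension 2 and with Ngp included. Probes higher and lower in tail-suspension numbered 3023 and 2683. They numbered 1041 and 790 with no filter on dim probes, 320 and 177 with the slide row as a block, 1532 and 1248 by the methods' t-test with adjustment and, chosen after seeing the data, 4810 and 4696 at its unadjusted p under 0.05. With array weights 4092 were lower. With single arrays left out they ranged from 965 to 2931 and from 726 to 2580, fewest without sham 2. Other neutrophil genes higher were 4 on probes well above background on all 6 arrays, 4 by the adjusted t-test, and from 5 to 23 with single arrays left out. Lower ones were 0 under every alternative run. With normexp Hpx reversed to -0.0070, and 55 of 471 single-gene results outside the members lost significance under alternatives other than leaving out arrays. The cause was not tested.

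The replicate number as a block (replicate block) gave 1714 higher and 1403 lower probes, 10 other neutrophil genes higher and the same member median of 4.62. Same-numbered arrays shared only a number, with deviations correlating at -0.02, -0.0176 and 0.0495, and 2 of 6 arrays correlated best with their own number. Signal over background limits Ltf, Retnlg and Mpo to bounds, which hold for the main processing and not with normexp correction. The same is true of the bounds given for Pglyrp1, Clec4d, Fpr1, Fpr2, Cd163 and Hpx.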

Other observations

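Some values stood apart from the comparisons. The Csf3r probe gave processed signals of 45800, 52600 and 51400 in sham and of 63200, 79000 and 71100 in tail-suspension, and the brightest Itgam probe 10400, 12600 and 13100 in sham and 10100, 17200 and 10300 in tail-suspension. Both were bright in hearts where Mmp8, Cxcr2 and Il1r2 were not well above background. Cfd, a close neighbour of Elane and Prtn3 on chromosome 10 that encodes the adipocyte protease adipsin, had signals of 79, 27.5 and 3.65 in sham and of 691, 69.1 and 107 in tail-suspension, a difference of 2.90 ± 1.29 that did not pass (adjusted p = 0.15, limma). Chi3l4, a paralog of Chi3l3, was well above background on tail-suspension 2 alone (45.6), the array where Chi3l3 was lowest among the suspended hearts (110).

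Adam8, C5ar1, Itgb2, Ltb4r1 and Anxa1 had been tested and had not passed on all arrays on their brightest probes. Without tail-suspension 2 they passed as higher by 2.19, 1.03, 0.97, 0.78 and 0.47 on the log2 scale (adjusted p = 0.040, 0.011, 0.017, 0.017 and 0.027, limma). Saa3, an acute-phase gene, was also well above background on tail-suspension 1 and 3 alone.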
